A study of Homo sapiens with 66 samples.

Results

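The genes described here encode the factors that hold RNA polymerase II at its pause site, release it, carry it through chromatin and cut its nascent transcript: DSIF with SPT6, FACT, NELF, the PAF complex, IWS1 with TFIIS, CDK12 and CDK13 with cyclin K, and Integrator. They were chosen by name, as 33 listed symbols matched to Ensembl identifiers through GENCODE release 29, with no measured value in the rule, though earlier results of these data were known when the list was drawn up. Of these, 32 were found among the 13331 genes of the deposited count table, and INTS3 was not analysed here. All 32 passed the filter on low counts and were tested.

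RNA was measured by 3′ end sequencing (QuantSeq), which reads the 3′ ends of polyadenylated RNA, in 66 libraries of KBM7, a human chronic myeloid leukaemia cell line. In 9 engineered lines CDK9 or 1 Mediator subunit (MED14, MED10, MED6, MED26, MED28, MED31, MED1 or MED12) carried a dTAG, a tag that lets the small molecule dTAG7 direct the tagged protein to degradation. Each tagged line received 500 nM dTAG7 or the solvent DMSO for 6 h, and wild-type cells received 500 nM dTAG7, 100 nM dBET6, 250 nM THAL-SNS-032 or DMSO for 6 h. The 22 groups held 3 libraries each (A, B and C), from wells of cells treated in triplicate. THAL-SNS-032 is a degrader of CDK9, and dBET6 one of the BET bromodomain proteins. All groups share the KBM7 background, and whether a tagged line is 1 clone is not given in the sources used here. Because nothing says that the wells came from separate cultures, a p-value here speaks only to the variation among these libraries, and this may be technical. RNA does not show whether a tagged protein was lost.

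As background, RNA polymerase II stops shortly after initiation, held by DSIF and NELF, until the kinase CDK9 phosphorylates both and the polymerase itself. NELF then leaves, DSIF stays as an elongation factor, and SPT6, the PAF complex, IWS1 and FACT join the moving polymerase while CDK12 and CDK13 phosphorylate its C-terminal domain. Integrator cuts nascent RNA and carries a phosphatase that opposes the elongation kinases, and it is known for processing small nuclear RNAs and for ending transcription early at many genes.

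The libraries held 439261 to 4337368 endogenous counts (median 3016290.5) and 10950 to 72684 counts of spike-in RNA, synthetic RNA added to each lysate during extraction. Relative to spike-in RNA, endogenous counts were 19.2% of DMSO in the CDK9 line with dTAG7, 11.3% with dBET6, 17.6% with THAL-SNS-032, 63.2% in the MED14 line, 82.3% in the MED6 line and 86.2% in the MED10 line, and from 90.6 to 106% in the other 6 comparisons. Per the extraction protocol, spike-in RNA was added to lysates of equal cell numbers. In bulk samples, the counts alone cannot tell fewer cells from less RNA per cell. All 10 haematopoietic markers searched were in the table and their median levels sum to 1909 CPM (counts scaled to the library's endogenous total), against 9.28 to 30.7 CPM for the B cell, T cell, endothelial and epithelial lists. None of the 3 fibroblast markers was in it. A few libraries stood apart from their own group: library A of the MED6 line with dTAG7 differed from libraries B and C with chi-square values per degree of freedom of 18.5 and 14.8, and library B of the MED12 line with DMSO from A and C with 8.63 and 8.46, where the closest pair in the data had 1.34. Library C of the MED12 line with dTAG7 differed from A and B with 4.90 and 5.97, and library A of the MED26 line with DMSO from B and C with 4.34 and 4.19. In the MED31 line library A differed from B and C with 4.38 and 3.93 with DMSO and 4.49 and 3.73 with dTAG7. Pairs reached 5.26 with dBET6 and 4.62 with THAL-SNS-032. Spike-in scaled calls in the MED6 line, whose library A with dTAG7 stood furthest apart, are also given without that library, while other values of that line include it.

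Levels are given as counts per 10000 spike-in counts. Fold changes are treated over DMSO on the log2 scale with their standard error (SE), from edgeR's quasi-likelihood test with Benjamini-Hochberg adjustment over all tested genes, and genes with an adjusted p under 0.05 are the ones called. Changes are given once scaled to spike-in RNA, which keeps a change common to most transcripts in view, and once scaled by TMM, which removes it and leaves the change relative to the typical gene. The median change of all tested genes on the spike-in scale was -2.93 in the CDK9 line, -3.67 with dBET6, -2.86 with THAL-SNS-032 and -0.69 in the MED14 line.

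Promoter sequences are shown for INTS7 and CDK12, the members whose response differed between Mediator lines on both scales, and for INTS1 and SSRP1, which fell less than the typical gene in the CDK9 line. Each is the 250 bases before the gene's start in RefSeq (GRCh38.p14), read 5′ to 3′ on the gene's strand, with searched motifs in capitals.
INTS7, chr1:212035558-212035807, minus strand: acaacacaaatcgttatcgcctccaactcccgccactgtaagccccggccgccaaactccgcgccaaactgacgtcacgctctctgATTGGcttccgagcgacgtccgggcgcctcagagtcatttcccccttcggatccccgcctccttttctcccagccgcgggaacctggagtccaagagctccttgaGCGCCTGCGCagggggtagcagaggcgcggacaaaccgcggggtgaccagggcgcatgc
CDK12, chr17:39461236-39461485, plus strand: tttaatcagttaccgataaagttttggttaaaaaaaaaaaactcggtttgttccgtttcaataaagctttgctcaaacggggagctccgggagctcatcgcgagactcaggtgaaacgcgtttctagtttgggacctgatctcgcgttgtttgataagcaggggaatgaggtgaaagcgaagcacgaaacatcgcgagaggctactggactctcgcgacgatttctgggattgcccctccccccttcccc
INTS1, chr7:1504390-1504639, minus strand: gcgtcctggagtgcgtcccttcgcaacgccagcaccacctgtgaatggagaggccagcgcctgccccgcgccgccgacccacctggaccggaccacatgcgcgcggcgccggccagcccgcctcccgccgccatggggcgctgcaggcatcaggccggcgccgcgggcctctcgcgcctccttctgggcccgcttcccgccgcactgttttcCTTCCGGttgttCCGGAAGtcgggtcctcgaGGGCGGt
SSRP1, chr11:57335893-57336142, minus strand: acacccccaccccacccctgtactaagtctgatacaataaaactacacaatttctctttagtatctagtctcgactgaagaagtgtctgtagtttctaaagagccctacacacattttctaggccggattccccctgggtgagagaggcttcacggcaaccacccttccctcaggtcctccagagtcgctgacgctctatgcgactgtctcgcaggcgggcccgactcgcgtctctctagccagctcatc
Capitals in INTS7 mark a CCAAT box (CCAAT) and an NRF1 motif, and those in INTS1 mark ETS motifs (CCGGAAG) and a GC box (GGGCGG). The CDK12 and SSRP1 windows held none of the motifs searched, which were these 4, the TATA box (TATAAA), the E-box (CACGTG) and the YY1 motif (AAGATGGC), each on both strands. Of the 32 members, 26 had such a window. The TATA box was in 0 of the 26, against 5.05% of the 9379 counted genes with such a window. The motif shares were not tested against each other. The GC box was in 19 (73.1%, against 68.3%), the CCAAT box in 8 (30.8%, against 35.4%), the ETS motif in 8 (30.8%, against 16.8%) and the NRF1 motif in 7 (26.9%, against 11.0%). Their median GC content was 64.8%, from 48.4% in SUPT16H to 78.4% in NELFB. A match is a run of letters and says nothing of binding.

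Every member fell on the spike-in scale in the CDK9 line with dTAG7 and in wild-type cells with dBET6 or THAL-SNS-032, and what set members apart was how far each fell relative to the typical gene. In the CDK9 line with dTAG7, 32 of 32 members fell, where 95.3% of all tested genes fell. With dBET6, 32 of 32 fell, against 97.1% of all genes, and with THAL-SNS-032, 32 of 32 fell, against 96.2%. The members' median change was -3.10 in the CDK9 line, -3.89 with dBET6 and -2.98 with THAL-SNS-032, close to the medians of all tested genes, so these counts describe the common fall and not these genes. Under TMM, 15 members fell and 7 rose in the CDK9 line, where 27.1% of all genes fell and 20.6% rose. Under TMM, 13 fell and 5 rose with dBET6 (23.6% and 17.8% of all genes), and 11 fell and 4 rose with THAL-SNS-032 (16.2% and 13.6%). The members' share of endogenous counts was 0.275% in the CDK9 line with dTAG7 and 0.348% with DMSO, 0.259% with dBET6, 0.287% with THAL-SNS-032 and 0.352% in wild-type cells with DMSO. Shares of single genes fell widely: in CPM, 6107 of 13331 genes lay below DMSO without overlap in the CDK9 line and 1357 above. With dBET6 these were 6154 and 1177 genes, and with THAL-SNS-032 5074 and 1083. A lower share is therefore not particular to the members. dBET6, THAL-SNS-032 and dTAG7 in wild-type cells share their DMSO libraries and differ in dose, so their values stand side by side and were not tested against each other.

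**Figure D1:**
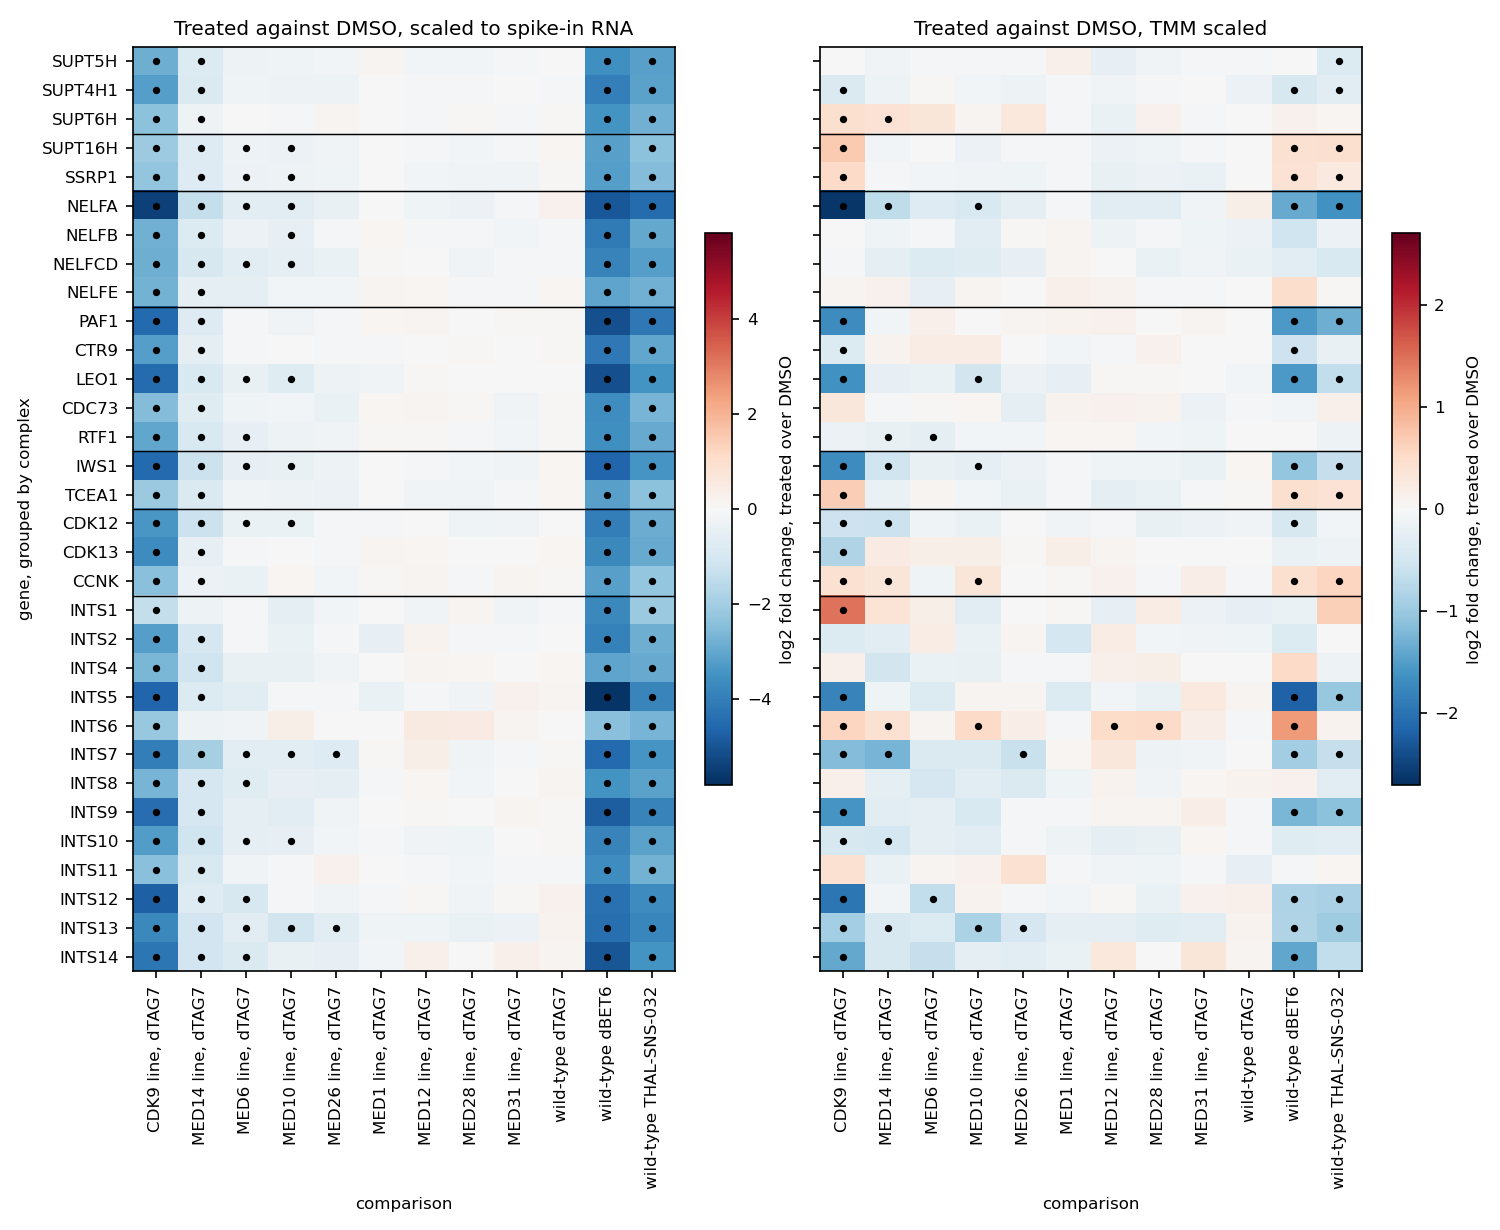
Log2 fold change of the 32 genes (vertical, grouped by complex) in the 12 comparisons of treated with DMSO (horizontal), scaled to spike-in RNA on the left and by TMM on the right; black dots mark an adjusted p under 0.05 in edgeR. The columns of the CDK9 line, dBET6 and THAL-SNS-032 are blue throughout on the left, where all 32 genes fell, and split on the right, where 15 fell and 7 rose in the CDK9 line.

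NELF is made of 4 subunits, and their transcripts did not fall alike. NELFA, the subunit that binds the polymerase, had 1.38, 2.64 and 4.31 counts per 10000 spike-in counts in the CDK9 line with dTAG7, against 108, 109 and 95.7 with DMSO. It had 3.56, 2.18 and 4.90 with dBET6 and 3.72, 4.10 and 7.08 with THAL-SNS-032, against 99.0, 122 and 95.4 in wild-type cells with DMSO. No treated library came near a DMSO library, and the treated libraries rest on 5 to 23 counts each. NELFA changed by -5.43 ± 0.24 in the CDK9 line (SE, adjusted p = 2.42e-29, edgeR), the lowest value of the 32 members there. Its change was -4.44 ± 0.21 with THAL-SNS-032, again the lowest of the 32, and -4.92 ± 0.22 with dBET6. Relative to the typical gene (TMM) NELFA fell by 2.62, 1.63 and 1.37 in the CDK9 line, with THAL-SNS-032 and with dBET6. NELFB, NELFCD and NELFE, which complete the complex, changed by -2.80, -2.85 and -2.73 in the CDK9 line, near the median gene. Under TMM none of these 3 passed the test in any of the 12 comparisons with edgeR, where their TMM changes ran from -0.54 to 0.47.

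DSIF and SPT6 stayed close to the typical gene. SUPT4H1, which encodes the smaller DSIF subunit, had 15.4, 17.4 and 17.2 counts per 10000 spike-in counts in the CDK9 line with dTAG7, against 162, 155 and 144 with DMSO. It had 8.24, 7.80 and 14.2 with dBET6 and 18.6, 13.2 and 24.8 with THAL-SNS-032, against 163, 176 and 132 in wild-type cells with DMSO. The groups were far apart on this scale, and under TMM the difference was small, at -0.39 ± 0.13 in the CDK9 line (adjusted p = 0.00869, edgeR), -0.42 ± 0.13 with dBET6 and -0.31 ± 0.12 with THAL-SNS-032. SUPT5H, the larger DSIF subunit and itself a CDK9 substrate, fell under TMM with THAL-SNS-032, by 0.36, and did not pass in the CDK9 line (adjusted p = 0.96, edgeR) or with dBET6 (adjusted p = 0.997, edgeR). SUPT6H, the histone chaperone SPT6, rose under TMM by 0.44 in the CDK9 line and by 0.38 in the MED14 line while it fell on the spike-in scale in both, by 2.39 and 0.30. In the MED14 line it had 64.2, 65.1 and 52.5 counts per 10000 spike-in counts with dTAG7, against 76.2, 85.6 and 60.5 with DMSO, which overlap, and its spike-in scaled call was lost without DMSO library A or B or dTAG7 library C.

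FACT, the histone chaperone that opens nucleosomes ahead of the polymerase, fell less than the typical gene. SSRP1 had 146, 187 and 145 counts per 10000 spike-in counts in the CDK9 line with dTAG7, against 685, 804 and 831 with DMSO. It had 90.6, 79.1 and 108 with dBET6 and 147, 123 and 166 with THAL-SNS-032, against 893, 889 and 715 in wild-type cells with DMSO. On this scale treated and DMSO libraries did not overlap, as for most genes. SSRP1 changed by -2.29 ± 0.11 in the CDK9 line, -3.17 ± 0.12 with dBET6 and -2.52 ± 0.11 with THAL-SNS-032. SUPT16H, its partner, changed by -2.12 ± 0.09, -3.16 ± 0.10 and -2.36 ± 0.09. Under TMM both rose in these 3 comparisons, SUPT16H by 0.70, 0.42 and 0.43 and SSRP1 by 0.51, 0.40 and 0.26. CPM, unlike TMM, is a share of the endogenous total and not relative to the typical gene. In CPM, treated and DMSO libraries overlapped for SSRP1 in all 3 comparisons and for SUPT16H with dBET6. SUPT16H lay above DMSO in CPM in every treated library in the CDK9 line and with THAL-SNS-032. Of all 13331 genes, 1357 did so in the CDK9 line and 1083 with THAL-SNS-032, while 6107 and 5074 lay below. TCEA1, which encodes TFIIS and restarts backtracked polymerase by provoking RNA cleavage, moved likewise, with TMM rises of 0.67, 0.43 and 0.39.

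**Figure D2:**
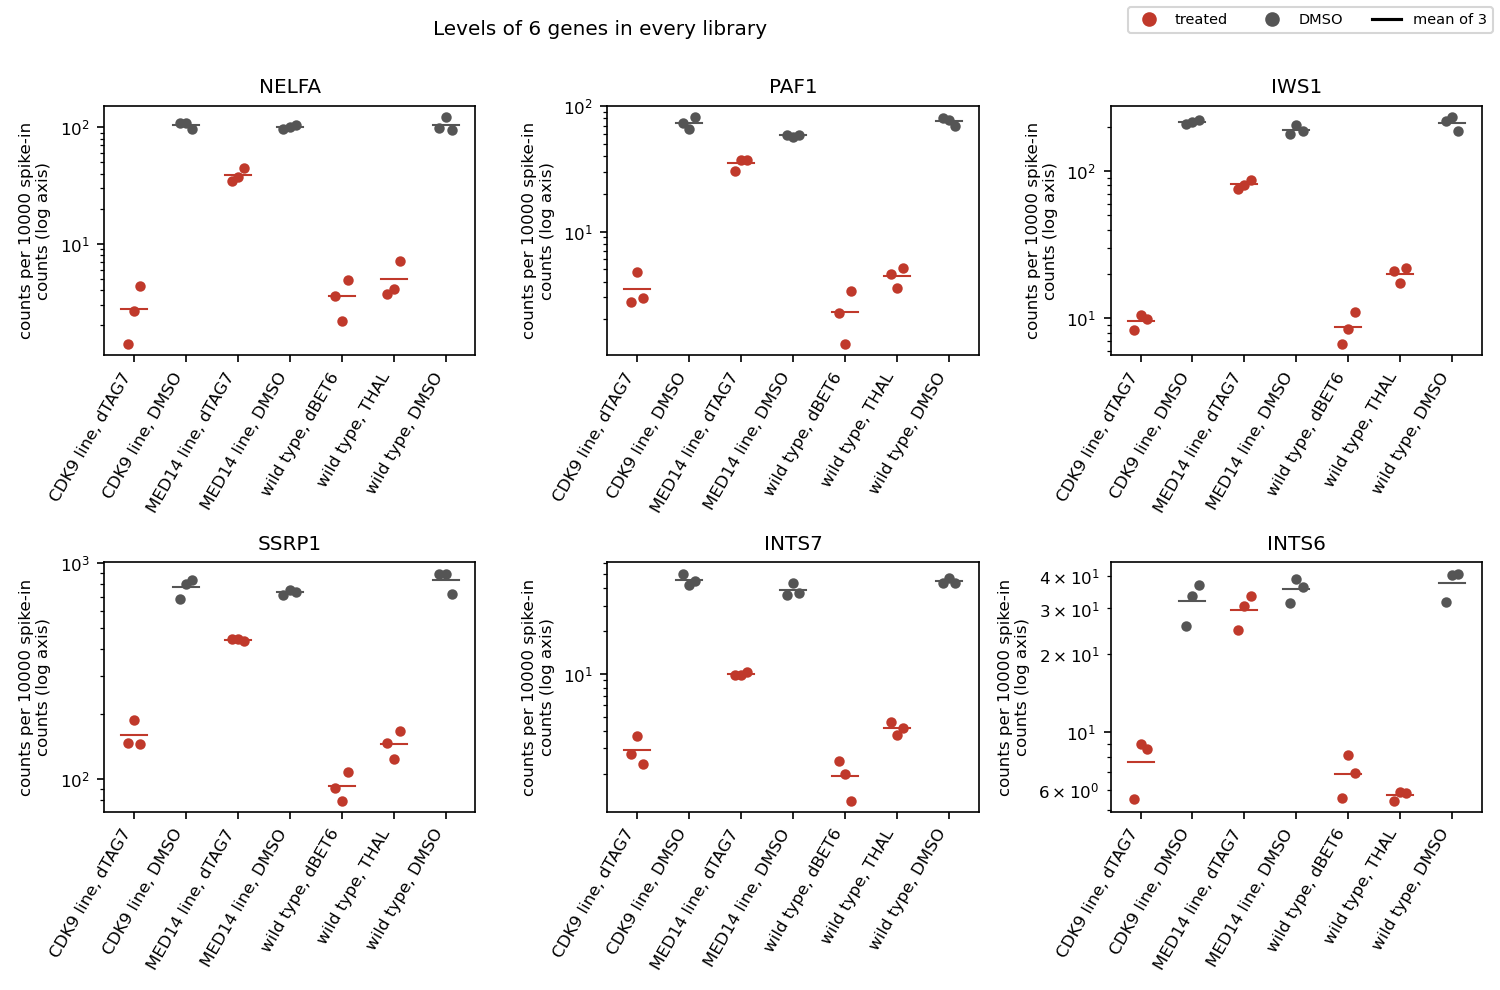
Counts per 10000 spike-in counts (vertical, log axis) of NELFA, PAF1, IWS1, SSRP1, INTS7 and INTS6 in every library of the CDK9 and MED14 lines and of wild-type cells; red points are treated and grey points DMSO libraries, bars are means of 3. NELFA falls to between 1.38 and 4.31 in the CDK9 line with dTAG7, while INTS6 in the MED14 line, at 24.8 to 33.5, overlaps its DMSO libraries at 31.5 to 39.1.

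In the PAF complex, a scaffold of elongation that connects the polymerase to histone marks, PAF1 and LEO1 fell further than CTR9, CDC73 and RTF1. PAF1 had 2.75, 4.74 and 2.99 counts per 10000 spike-in counts in the CDK9 line with dTAG7, against 73.1, 65.4 and 81.8 with DMSO. LEO1 had 3.71, 4.22 and 2.99 with dTAG7, against 86.8, 74.0 and 82.5 with DMSO. For both genes every treated library lay far below every DMSO library. PAF1 changed by -4.52 ± 0.21 in the CDK9 line, -5.09 ± 0.21 with dBET6 and -4.12 ± 0.20 with THAL-SNS-032, with TMM changes of -1.71, -1.55 and -1.32, all called. LEO1 changed by -4.47 ± 0.20, -5.10 ± 0.20 and -3.46 ± 0.17, with TMM changes of -1.64, -1.56 and -0.66, all called. CTR9, the scaffold of the complex, fell under TMM by 0.38 in the CDK9 line and 0.56 with dBET6, and its change with THAL-SNS-032, -0.21, did not pass. CDC73, the tumour suppressor parafibromin, and RTF1, which stimulates histone H2B ubiquitination, passed under TMM in none of these 3 comparisons with edgeR, with changes from -0.16 to 0.32.

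IWS1, a partner of SPT6 in elongation, gave the lowest adjusted p of the members in the CDK9 line and with both compounds on the spike-in scale. It had 8.39, 10.5 and 9.95 counts per 10000 spike-in counts in the CDK9 line with dTAG7, against 208, 215 and 220.1 with DMSO. With dBET6 it had 6.68, 8.52 and 11.1 and with THAL-SNS-032 20.9, 17.3 and 21.9, against 218, 232 and 186 in wild-type cells with DMSO. The 3 libraries of a treatment lay close together and far below DMSO. IWS1 changed by -4.53 ± 0.14 in the CDK9 line (adjusted p = 1.92e-36, edgeR), -4.60 ± 0.13 with dBET6 and -3.42 ± 0.12 with THAL-SNS-032, and by -1.70, -1.03 and -0.61 under TMM, all called.

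In the CDK9 line the 2 elongation kinases and their cyclin parted under TMM. CDK12, known for keeping long DNA repair genes transcribed to their ends, had 13.5, 23.7 and 20.6 counts per 10000 spike-in counts in the CDK9 line with dTAG7, against 179.9, 178 and 192 with DMSO. It changed by -3.36 ± 0.14 there, and by -0.56 ± 0.11 under TMM. CDK13, its close relative, changed by -3.63 ± 0.25, and by -0.80 ± 0.26 under TMM. CCNK, the cyclin that both kinases need, changed by -2.41 ± 0.19 and rose by 0.40 ± 0.15 under TMM. With dBET6 and THAL-SNS-032 CCNK rose under TMM by 0.43 and 0.58, while CDK13 did not pass, at -0.19 and -0.13. CDK12 fell under TMM with dBET6, at -0.43, and did not pass with THAL-SNS-032, at -0.07.

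Within Integrator, 13 of 13 subunits measured fell on the spike-in scale in the CDK9 line, where 95.3% of all genes fell. Under TMM 7 fell and 2 rose there, against 27.1% and 20.6% of all genes. INTS12, a small subunit with a PHD finger, had 1.24, 1.05 and 0.663 counts per 10000 spike-in counts with dTAG7, from 9, 2 and 2 counts, against 26.5, 31.4 and 29.9 with DMSO. INTS5 had 1.38, 1.58 and 4.64 with dTAG7, against 52.1, 67.9 and 48.7 with DMSO. INTS9, a partner of the RNA-cutting subunit INTS11, had 1.65, 1.05 and 2.32 with dTAG7, against 35.6, 38.5 and 37.3 with DMSO. These 3 lay far below DMSO in every treated library, though on few counts. INTS12 changed by -4.74 ± 0.35, INTS5 by -4.60 ± 0.37 and INTS9 by -4.40 ± 0.38, against -2.41 ± 0.18 for INTS11, the endonuclease itself. With dBET6, INTS5 had 0.891, 1.45 and 0.774, against 54.5, 60.5 and 61.5 in wild-type cells with DMSO. Its change, -5.71 ± 0.38, was the lowest of the 32 members with dBET6, and with THAL-SNS-032 it was -3.82 ± 0.32.

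At the other end stood INTS1 and INTS6. INTS1, the largest subunit and part of the core, had 9.49, 7.38 and 9.95 counts per 10000 spike-in counts in the CDK9 line with dTAG7, against 29.2, 16.7 and 26.7 with DMSO. The groups did not overlap, but they were closer than for any other member: the change was -1.37 ± 0.26, the highest of the 32, and under TMM INTS1 rose by 1.46 ± 0.28 (adjusted p = 1.45e-05, edgeR). With THAL-SNS-032 its change, -2.17 ± 0.26, was also the highest, and the TMM value, 0.63 ± 0.29, did not pass. With dBET6 it changed by -3.72 ± 0.31, near the median gene. INTS6, which anchors the phosphatase to the complex, had 42.6, 56.2 and 43.2 CPM with dBET6, against 25.2, 29.2 and 34.0 CPM in wild-type cells with DMSO. Its share of the endogenous counts was thus higher in every dBET6 library, while its level per spike-in count, 5.57, 8.16 and 6.96 with dBET6 against 31.8, 40.5 and 40.8 with DMSO, was lower in each. INTS6 changed by -2.43 ± 0.20 with dBET6, the highest of the 32, and rose by 1.14 ± 0.19 under TMM (adjusted p = 1.16e-06, edgeR).

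Across the 32 genes, the spike-in scaled changes in the CDK9 line with dTAG7 and in wild-type cells with THAL-SNS-032, which have separate DMSO libraries, had r = 0.914 and rho = 0.898. Those in the CDK9 line and with dBET6 had r = 0.849 and rho = 0.867, and those in the CDK9 and MED14 lines r = 0.514 and rho = 0.513. These are descriptions across genes, which are not independent replicates. No correlation across all tested genes is given beside them, so they do not single out these genes. Neither the genomic span of a member nor its level in wild-type DMSO cells tracked its change, with rho between -0.170 and 0.129 in the CDK9 and MED14 lines and with both compounds.

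**Figure D3:**
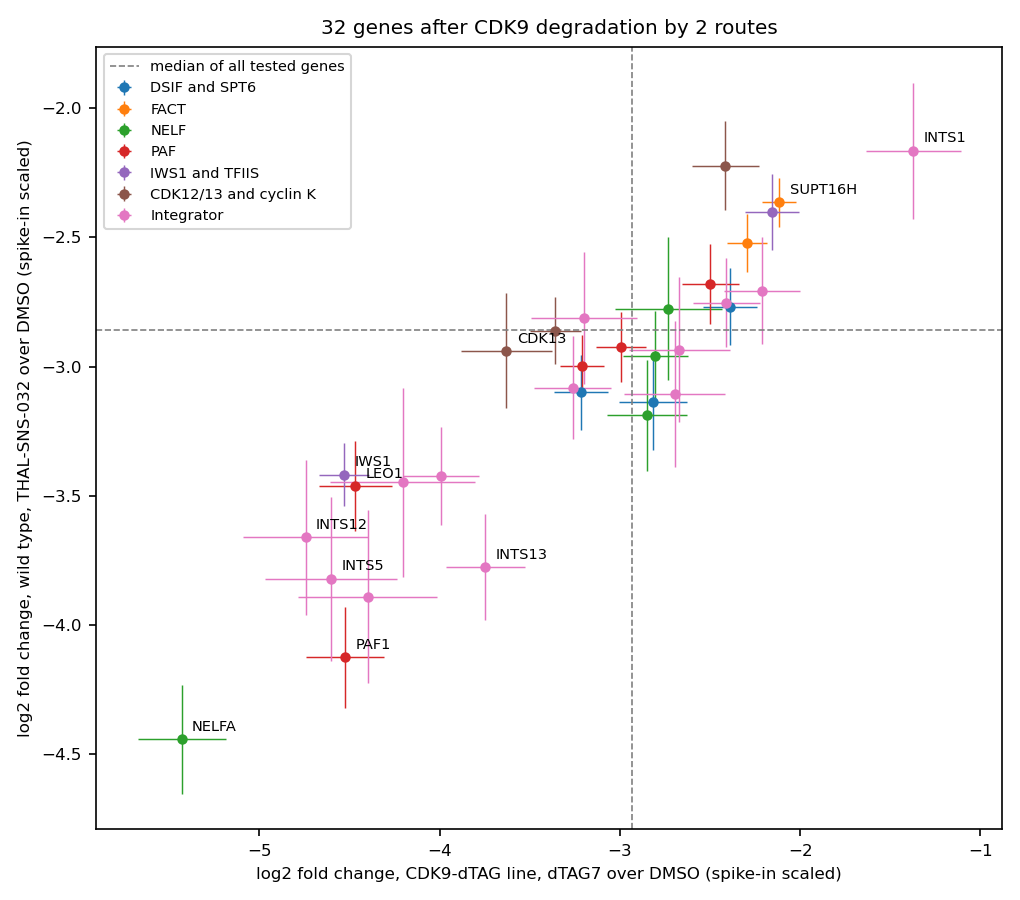
Spike-in scaled log2 fold change of the 32 genes in the CDK9 line with dTAG7 over DMSO (horizontal) and in wild-type cells with THAL-SNS-032 over DMSO (vertical); bars are SE, colours mark complexes and dashed lines the medians of all tested genes, -2.93 and -2.86. NELFA lies lowest on both axes, at -5.43 and -4.44, and INTS1 highest, at -1.37 and -2.17.

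The dTAG7 effect on the members in the CDK9 line was also set against that in other lines. Compared with dTAG7 in wild-type cells, 32 of 32 members fell further in the CDK9 line, as did 93.9% of all genes, and under TMM 13 were lower and 6 higher (23.3% and 15.3% of all genes). Compared with the MED14 line, 32 of 32 fell further in the CDK9 line, as did 88.3% of all genes, and under TMM 9 were lower and 5 higher (20.1% and 15.1% of all genes). NELFA differed most between these lines, by -4.06 ± 0.31 on the spike-in scale and -1.93 under TMM. INTS12, INTS5 and PAF1 followed, with spike-in scaled differences of -3.98, -3.80 and -3.78. INTS7 differed by -2.05 on the spike-in scale and by 0.09 under TMM, which did not pass (adjusted p = 0.842, edgeR).

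In the line with tagged MED14, the backbone of Mediator, 30 of the 32 members fell with dTAG7 on the spike-in scale, where 63.3% of all genes fell, with a median change of -0.84 against -0.69 for all genes. INTS1 and INTS6 were the exceptions, at -0.31 and -0.28. Under TMM 7 members fell (NELFA, RTF1, IWS1, CDK12, INTS7, INTS10 and INTS13) and 3 rose (SUPT6H, CCNK and INTS6), against 16.6% and 13.2% of all genes. INTS7, a core subunit of Integrator, had 9.86, 9.83 and 10.2 counts per 10000 spike-in counts with dTAG7, against 35.8, 42.9 and 36.8 with DMSO. The 3 treated libraries were nearly equal and lay far below every DMSO library. INTS7 changed by -1.95 ± 0.17 (adjusted p = 1.06e-14, edgeR), the lowest of the 32, and by -1.26 ± 0.17 under TMM. CDK12 had 69.8, 75.6 and 84.1 with dTAG7, against 172, 188 and 188 with DMSO, and NELFA had 34.4, 37.5 and 45.0 with dTAG7, against 97.4, 100.4 and 105 with DMSO. The groups of both genes were well apart, with changes of -1.26 ± 0.12 and -1.37 ± 0.16, and of -0.57 ± 0.09 and -0.69 ± 0.12 under TMM. IWS1 had 75.8, 80.5 and 86.9 with dTAG7, against 178, 206 and 187 with DMSO, a change of -1.23 ± 0.11, and of -0.55 ± 0.09 under TMM. INTS6 had 24.8, 30.7 and 33.5 with dTAG7, against 31.5, 39.1 and 36.4 with DMSO, which overlap, and under TMM it rose by 0.40 ± 0.15 (adjusted p = 0.0345, edgeR). NELFA, IWS1, CDK12, INTS7, INTS10 and INTS13 fell under TMM in both the CDK9 and the MED14 line. PAF1, LEO1, INTS5, INTS9 and INTS12, which also fell under TMM in the CDK9 line, had TMM changes in the MED14 line of -0.07, -0.22, -0.11, -0.31 and -0.08, none of which passed. Without library B of the DMSO group 25 members were called on the spike-in scale, the calls of CCNK, CDK13, INTS5, NELFE and SUPT6H being lost.

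Compared with dTAG7 in wild-type cells, 26 members fell further in the MED14 line on the spike-in scale (57.1% of all genes). Under TMM 5 did (10.3% of all genes): INTS7 by -1.25, NELFA by -0.85, IWS1 by -0.59, INTS13 by -0.54 and CDK12 by -0.48. In wild-type cells themselves dTAG7 changed no member in edgeR, where it changed 0% of all genes, with changes from -0.13 to 0.25, and no member had an unadjusted p under 0.05. DESeq2 and limma called none there either.

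The other Mediator lines moved fewer members. In the MED10 line, 11 of 32 fell (19% of all genes), and in the MED6 line 14 fell (18.4% of all genes). Fitted on the libraries of the comparison alone, edgeR called 19 members in the MED10 line, 0 in the MED6 line and 6 in the MED26 line. No share of all genes is given for those fits, so these counts do not single out the members. Without library A of the MED10 line with dTAG7 6 were called (INTS7, INTS13, IWS1, LEO1, NELFA and SUPT16H). Without library A of the MED6 line with dTAG7, which stood apart, 3 were called (INTS7, INTS13 and IWS1), and without library A or B of its DMSO group 7 and 9. INTS13, an arm subunit of Integrator, had 44.9, 47.9 and 48.8 counts per 10000 spike-in counts in the MED10 line with dTAG7, against 95.0, 109 and 90.7 with DMSO. The groups were well apart, and the change was -1.05 ± 0.16 (adjusted p = 1.32e-06, edgeR), the lowest of the 32 there, and -0.84 ± 0.13 under TMM. INTS13 was called on both scales in 6 of the 12 comparisons, more than any other member. Under TMM 4 members fell and 2 rose in the MED10 line (9.9% and 8.02% of all genes), the falls being those of NELFA, LEO1, IWS1 and INTS13 and the rises those of CCNK and INTS6. In the MED6 line 2 fell under TMM, RTF1 and INTS12 (3.64% of all genes), and both lost their spike-in scaled calls without library A with dTAG7. In that library INTS12 had 11.3 counts per 10000 spike-in counts, and in libraries B and C it had 27.3 and 23.1.

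In the MED26 line 2 members fell, INTS7 and INTS13 (2.88% of all genes), and both also fell under TMM (1.4%). INTS7 had 27.3, 24.7 and 25.6 counts per 10000 spike-in counts with dTAG7, against 38.0, 43.4 and 47.7 with DMSO, without overlap, a change of -0.74 ± 0.15 (adjusted p = 0.00202, edgeR). INTS13 had 55.6, 57.0 and 54.1 with dTAG7, against 76.9, 84.0 and 90.1 with DMSO, a change of -0.59 ± 0.16 whose call was lost when any of 5 of the 6 libraries was left out, DMSO library A being the exception. In the MED1, MED12, MED28 and MED31 lines edgeR called 0 members on the spike-in scale, where it called 0, 4.97, 4.84 and 3.11% of all genes. At an unadjusted p under 0.05 (edgeR) there were 1, 2, 4 and 2 members. No share of all genes is given at that threshold, here or under TMM, nor for DESeq2 and limma, so those counts do not single out the members. DESeq2 called 1 member in the MED12 line and none in the other 3, and limma on the loess-normalized values called none in any of the 4. Under TMM edgeR called 0 members in the MED1 and MED31 lines (0.00771% and 4.46% of all genes), with 2 members in each at an unadjusted p under 0.05. INTS6 was the 1 member called under TMM in the MED12 line, by a rise of 0.49 ± 0.15 (3.06% of all genes rose), and in the MED28 line, by a rise of 0.52 ± 0.14 (2.03% of all genes). INTS6 had 54.9, 52.8 and 39.1 counts per 10000 spike-in counts in the MED12 line with dTAG7, against 41.6, 25.9 and 32.8 with DMSO, where library C with dTAG7 overlaps DMSO. Both that library and DMSO library B, which had the lowest value, 25.9, stood apart from their groups. In the MED28 line it had 52.1, 55.9 and 66.7 with dTAG7, against 51.6, 42.5 and 33.1 with DMSO, the lowest treated library being close above the highest DMSO library.

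The size of the dTAG7 effect differed between the 8 Mediator lines for 25 members on the spike-in scale (46.2% of all genes, edgeR F test). Under TMM it did for INTS7 and CDK12 (12.4% of all genes), with adjusted p = 1.06e-05 and 0.0135 in the edgeR F test. INTS7 spanned the widest range, with spike-in scaled changes of -1.95 in the MED14 line, -0.74 in the MED26 line, -0.66 in the MED6 line, -0.62 in the MED10 line, -0.18 in the MED28 line, -0.12 in the MED31 line, 0.06 in the MED1 line and 0.34 in the MED12 line. Each SE was between 0.14 and 0.17, so the MED26, MED6 and MED10 lines did not differ beyond their errors. CDK12 fell in the MED14, MED6 and MED10 lines, by 1.26, 0.39 and 0.38, and its values in the other 5 lines, from -0.25 to 0.01, did not pass. Its call was lost in the MED6 line without library A with dTAG7 or library A or C with DMSO, and in the MED10 line without library A with dTAG7.

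**Figure D4:**
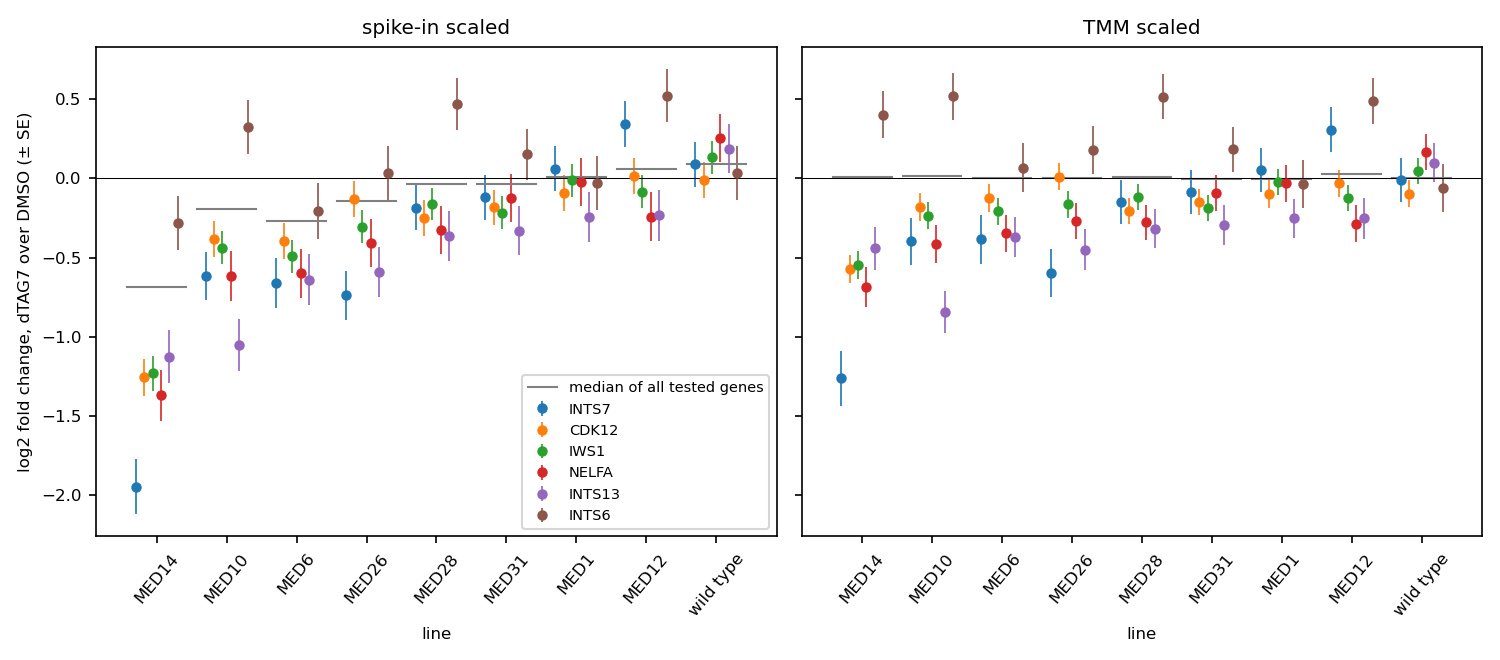
Log2 fold change with dTAG7 over DMSO (vertical, bars are SE) of INTS7, CDK12, IWS1, NELFA, INTS13 and INTS6 in the 8 Mediator lines and wild-type cells (horizontal), scaled to spike-in RNA on the left and by TMM on the right; grey lines are medians of all tested genes. INTS7 ranges from -1.95 in the MED14 line to 0.34 in the MED12 line, and INTS6 lies above the grey line in the 8 Mediator lines except MED1.

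In DMSO libraries of the 10 lines, 10 members differed on the spike-in scale (40.7% of all genes, edgeR F test), and under TMM 1 did, INTS4, a subunit of the cleavage module (26.6% of all genes). INTS4 had 11.1, 13.9 and 11.9 counts per 10000 spike-in counts in the MED14 line with DMSO, and its means in the other 9 lines ran from 24.7 in wild-type cells to 31.5 in the MED28 line (adjusted p = 0.00516 under TMM, edgeR F test). Without library A of the MED28 line with DMSO 6 members were called in place of 10.

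Of other elongation and P-TEFb genes, 32 were tested, and of genes for Integrator partners, termination and phosphatases of the polymerase 40. In the CDK9 line and with both compounds all of both lists fell on the spike-in scale. Of all genes, 95.3% fell in the CDK9 line, 97.1% with dBET6 and 96.2% with THAL-SNS-032. In the MED14 line 21 of 32 fell and 1 rose, and 33 of 40 fell, where 63.3% of all genes fell. Under TMM 18 of the 32 fell and 3 rose in the CDK9 line, and 18 of the 40 fell and 10 rose. There, 27.1% of all genes fell and 20.6% rose. With dBET6 12 of the 32 fell and 3 rose, and 12 of the 40 fell and 6 rose (23.6% and 17.8% of all genes). With THAL-SNS-032 6 of the 32 fell and 3 rose, and 13 of the 40 fell and 6 rose (16.2% and 13.6%). In the MED14 line 5 of the 32 fell under TMM and 7 rose, and 11 of the 40 fell and 7 rose, where 16.6% of all genes fell and 13.2% rose. The gene of these lists that rose on the spike-in scale in the MED14 line was HEXIM1, which keeps CDK9 inactive with the 7SK RNA, by 1.40 ± 0.16 (adjusted p = 8.54e-11, edgeR).

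For 7 members a counted gene on the other strand overlaps within 1000 bases of the 3′ end, where these reads fall, and whether counting used strand is not given in the sources used here. They are SUPT4H1, CTR9, LEO1, CCNK, INTS4, INTS8 and INTS11, whose values may hold reads of the neighbour.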

How the data were processed

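RNA was measured by 3′ end sequencing in 66 libraries (22 groups of 3). Per the submitters' processing notes, STAR 2.5.2b, HTSeq 0.6.0 and bedtools 2.26.0 were used with the hg38 genome. The annotation release, strand setting and any removal of low genes are not given in the sources used here, but every gene in the table had at least 70 counts in total and was above 0 in at least 20 libraries. The authors deposited raw read counts per gene and spike-in, and a second table of loess-normalized signal, which was used in 1 alternative, as log2(signal + 1) in limma. With spike-in totals as library sizes, the counts of all groups entered 1 model in edgeR 4.0.16 under R 4.3.3, and contrasts were judged by its quasi-likelihood test after Benjamini-Hochberg adjustment (threshold 0.05). The filter filterByExpr left 12515 genes (12973 under TMM). SE is the absolute log2 fold change over the square root of F. Alternatives were TMM and median-of-ratios scaling, DESeq2 1.42.0, limma 3.58.1, no filter (13331 genes) or a stricter one (10709 genes), the libraries of a comparison alone, a replicate block, and 66 fits that each left out 1 library. The code was tested on simulated data. Figures used matplotlib 3.10.9 in Python 3.11.15. Members and lists were chosen with earlier results of these data known. Genes described singly were those with the lowest or highest spike-in scaled change in the CDK9, MED14, dBET6 or THAL-SNS-032 comparison, those called in 1 direction on both scales in at least 3 of the 12 comparisons, and the gene with the lowest p among the 8 Mediator lines. Other members were named to complete their complex, after their values were seen.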

Additional observations from a re-analysis of the deposited data

Results flagged for a closer look

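The results below differed between lines under the same dTAG7 treatment, by a test of the difference itself in edgeR on the spike-in scale. The effect in the MED14 line less that in wild-type cells passed for 26 members, where 57.1% of all genes fell further. Among the genes described singly that also passed under TMM, this difference was -2.03 for INTS7, -1.62 for NELFA, -1.36 for IWS1, -1.31 for INTS13 and -1.25 for CDK12.

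The effect in the CDK9 line less that in wild-type cells passed for 32 members, where 93.9% of all genes fell further. The effect in the CDK9 line less that in the MED14 line also passed for 32, where 88.3% of all genes fell further. In the second of these, 9 members were also lower under TMM (20.1% of all genes). Their spike-in scaled differences were -4.06 for NELFA, -3.98 for INTS12, -3.80 for INTS5, -3.78 for PAF1, -3.56 for LEO1, -3.42 for INTS9, -3.30 for IWS1, -3.16 for CDK13 and -2.62 for CTR9.

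Among the 8 Mediator lines the effect differed for 25 members (46.2% of all genes). The adjusted p was 8.78e-11 for INTS7 and 1.36e-07 for CDK12 in the edgeR F test.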

How the results depend on the processing

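The scaling decided most counts of called members. TMM gave 10 in the MED14 line, 6 in MED10, 2 in MED6, 1 in MED12, 1 in MED28, 18 with dBET6, 15 with THAL-SNS-032, 5 for MED14 less wild-type, 19 for CDK9 less wild-type, 14 for CDK9 less MED14, 2 among the 8 Mediator lines and 1 among DMSO libraries. In the same order, median-of-ratios scaling gave 9, 5, 2, 1, 1, 16, 13, 5, 18, 14, 2 and 1, and 21 in the CDK9 line. These scalings remove a change common to most genes by construction. INTS1 reversed under TMM and median-of-ratios scaling in the CDK9 line (1.46 and 1.58), the MED14 line (0.38 and 0.41) and with THAL-SNS-032 (0.63 and 0.71). INTS6 reversed in the CDK9 line (0.59 and 0.71), the MED14 line (0.40 and 0.44), with dBET6 (1.14 and 1.30) and with THAL-SNS-032 (0.10 and 0.18). CDK12 with THAL-SNS-032 reversed under median-of-ratios scaling (0.00824). Fitting the libraries of a comparison alone gave 0 in MED6, 19 in MED10, 6 in MED26 and 17 among DMSO libraries. limma on loess-normalized values gave 8 in MED6, 1 in MED26 and 3 among DMSO libraries. DESeq2 and a stricter filter each gave 1 in MED12. For these the cause was not tested, and no share of all genes called in the same fit is given beside the counts. Leaving out 1 library gave 25 to 29 members in MED14, 6 to 12 in MED10, 3 to 17 in MED6, 1 to 2 in MED26, 0 to 1 in MED12 and in MED28, 0 in MED1, MED31 and wild-type dTAG7, 25 to 28 for MED14 less wild-type, 19 to 27 among the 8 lines, 6 to 13 among DMSO libraries and 32 in the other 5 results. Of 354 single-gene values with a library left out, 347 kept direction and call and 7 lost the call. DESeq2 kept all 59 single-gene values, TMM kept 44 of them and median-of-ratios scaling 39. These genes were chosen for extreme or called values in these data, so the tallies do not speak for other members. The library letters did not pair the samples: the correlations of same-letter deviations were -0.217 to 0.055. With the letters as a replicate block, 32, 30, 14 and 11 members were called in the CDK9, MED14, MED6 and MED10 lines. Counts under 10 in a library, as for INTS5 and INTS12, limit how precisely their falls are known.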
